A study of Mus musculus with 12 samples.

Results

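The glutathione transferases described here are 10 genes of the alpha class (Gsta2, Gsta3, Gsta4), the mu class (Gstm1, Gstm2, Gstm3, Gstm4), the pi class (Gstp1) and the theta class (Gstt1, Gstt3). Their probes are the non-control probes that the array design assigns to these symbols, a rule that uses no measured value, and the set was picked with earlier results of these data known. The design holds 13 such probes among 41174, and all 10 genes were among the 14911 that could be tested. RNA from livers of male C57BL6/J mice was measured on 12 Agilent arrays with 2 colours. The mice were wild-type or Cyp1b1 null. From weaning at 3 weeks until they were killed at 14 weeks, they were fed a low-fat diet (10% fat) or a high-fat diet (60% fat). Each of the 4 groups, given by genotype and diet, has 3 arrays. Every array set its sample, labelled with Cy3, against the same kind of reference, pooled liver RNA of wild-type mice on the low-fat diet labelled with Cy5, and no dyes were swapped. The description of the samples names 3 pooled samples per array, so an array is not 1 animal, and p-values measure only the spread between these arrays, which may be technical. The sources used here do not say how the null line was made.

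Glutathione transferases join the tripeptide glutathione to electrophilic compounds, such as oxidised lipids and activated drugs, so that these become water-soluble and can be exported. The cytosolic enzymes work as dimers and fall into classes by sequence, and the liver is a main site of the alpha, mu, pi and theta classes. Their genes are known targets of the transcription factor NRF2, which binds antioxidant response elements, and of xenobiotic receptors such as the Ah receptor and CAR. Cyp1b1 is a cytochrome P450 that oxidises polycyclic aromatic compounds, oestrogens and lipids, and its products include electrophiles of the kind these transferases take up. The study set the null liver against the wild-type liver on each diet and the high-fat against the low-fat diet in wild-type mice.

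Which transcript a probe reads decides what its value means, because members of a class resemble each other. Those of the mu and theta classes also lie side by side in the genome, while Gsta2 and Gsta3 lie on chromosomes 9 and 1. Each probe has 60 bases, and the stretches of 30 bases below are the first 30 of the probes that the results turn on, as deposited. The sources used here do not give a probe's place in its transcript.
Gstt3, probe A_51_P377856: gttgcttggtatgtcctgactttccaaatt
Gsta4, probe A_51_P112223: gctggagtggagtttgaggaagaatttctt
Gstp1, probe A_51_P374457: gcccaagatcaaggcctttctgtcctcccc
Gstp1, probe A_51_P374464: cgcggcaaatatgtcaccctcatctacacc
Gstm1, probe A_51_P479311: gcctgttcctggtggagtagcctccccagg
Gstm1, probe A_52_P415215: actggagtaacaagtaggcccttgctacac

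The Gsta2 probe was the member probe with the longest run in common with a probe of another gene, 20 bases shared with the probe of its alpha-class neighbour Gsta1. For the other 12 member probes that run was 12 to 16 bases. Below are bases 4 to 33 of the Gsta2 probe and bases 31 to 60 of the Gsta1 probe, with the shared 20 bases in capitals.
Gsta2, probe A_52_P458682: gtataCAGAAGGTATTTTAGATCTGactga
Gsta1, probe A_51_P305140: gacatgtattCAGAAGGTATTTTAGATCTG

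All 13 member probes were well above background in the sample channel on all 12 arrays. Between 19652 and 25003 spots per array were well above background in that channel, and the number of arrays limits the precision. Of the Cyp1b1 probes, A_51_P255456 counted as measured and A_52_P297822 did not. The measured probe had log2 ratios of -1.11 to 0.15 on the 6 wild-type arrays and of 0.65 to 1.68 on the 6 arrays labelled null. On wild-type low-fat arrays 2 and 3 (-0.85 and -1.11) it was not well above background in the sample channel. It was brighter where the label says null. The sources used here do not say whether this probe lies inside the deleted part of Cyp1b1. It therefore does not check the labels, and every direction below is that of the arrays as labelled. The tissue label reads liver hepatocytes: all 10 hepatocyte markers on the array were well above background on all arrays, and so were 12 of 12 Kupffer cell and macrophage markers and 11 of 11 endothelial markers. In such bulk samples, fewer cells of a type and less RNA per cell cannot be told apart. The wild-type low-fat array 1 stood apart from its group, with correlations of -0.08 and 0.08 over genes with the other two, where other pairs of arrays of 1 group had 0.36 to 0.87. The 12 arrays were scanned in 3 scans, the first with 6 arrays of all 4 groups, the second with 1 array of each group and the third with 2 wild-type arrays. In the first scan, null low-fat arrays 2 and 3 were alone on slide 1, and the other arrays were on slide 2. For every gene below, a low-fat genotype difference within the first scan therefore cannot be told apart from a slide difference.

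The theta class held the only member that passed the test. Gstt3, a theta-class transferase, was 2.82-fold lower in the livers labelled null, taking the mean of both diets. On the scale of the log2 ratio of sample to reference, Gstt3 stood at 0.23, 0.25 and 0.89 on the wild-type low-fat arrays, with a mean of 0.46 ± 0.38 (SD, n = 3). Wild-type high-fat arrays gave 1.41, 0.96 and 0.85, a mean of 1.07 ± 0.30. Null low-fat arrays gave -0.41, -1.09 and -0.92, a mean of -0.81 ± 0.35, and null high-fat arrays gave -0.45, -1.08 and -0.43, a mean of -0.65 ± 0.37. Every wild-type array was above the reference pool and every array labelled null was below it, so the genotypes did not overlap on either diet. The log2 difference averaged over both diets was -1.50 (SE 0.19, limma adjusted p = 0.00579). Of all genes tested, 0.127% passed this test in the lower direction.

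Within each diet the same probe did not pass. On the low-fat diet the log2 difference of Gstt3 was -1.26 (SE 0.27, limma adjusted p = 0.194). The high-fat difference was -1.73 (SE 0.27, limma adjusted p = 0.0895). Within the first scan the 2 differences were -1.23 and -1.85, and within the second -0.66 and -2.04, while the third scan holds no array labelled null. With the scan as a block, the difference averaged over both diets was -1.46 (SE 0.22, limma adjusted p = 0.0252). Centring each array on its median in place of loess gave -1.10 for it and ended the call (limma adjusted p = 0.999).

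Gstt1, the theta-class enzyme that acts on small halogenated compounds, lies next to Gstt3 on chromosome 10. In wild-type livers its log2 ratios were 0.33, 0.87 and 0.78 with the low-fat diet and 1.59, 0.81 and 0.63 with the high-fat diet. The arrays labelled null gave 0.29, 0.64 and 0.59 on the low-fat diet and 0.75, 0.12 and 0.88 on the high-fat diet. All 12 values were above the reference pool, and the genotypes overlapped on both diets. The log2 difference over both diets was -0.29 (SE 0.20, 95% interval -0.73 to 0.14, limma adjusted p = 0.776). With the scan as a block and the wild-type low-fat array 1 left out, it was -0.75 (limma adjusted p = 0.0354), a setting chosen after seeing the data. Whether Gstt3 and Gstt1 differ in their response was not tested.

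The third theta-class gene measured, Gstt2, belongs to the same chromosome 10 cluster and was not among the 10 members. It read -0.49 to 0.17 on the low-fat and -0.23 to 0.24 on the high-fat wild-type arrays. Arrays labelled null read -1.27 to -0.99 on the low-fat and -0.63 to -0.55 on the high-fat diet. Its genotypes did not overlap on either diet, and the log2 difference over both diets was -0.81 (SE 0.14, limma adjusted p = 0.0407).

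**Figure D1:**
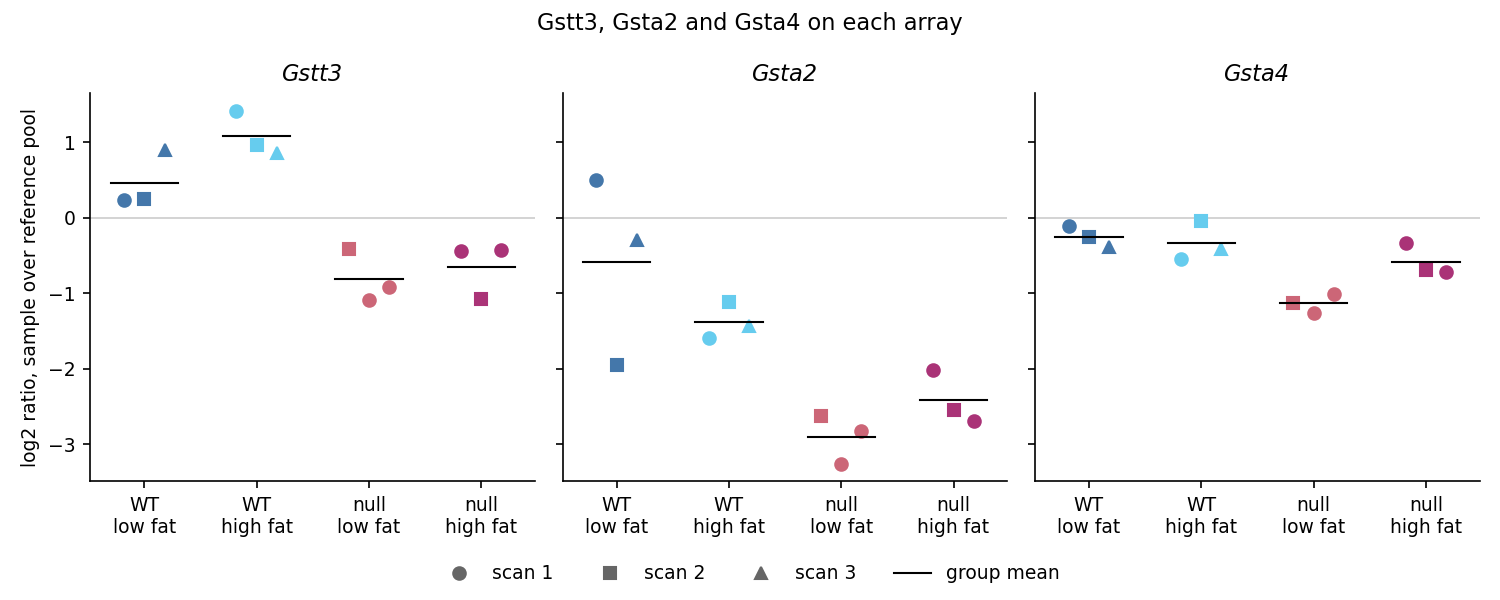
Log2 ratio of sample to reference pool (vertical axis) of Gstt3, Gsta2 and Gsta4 on each of the 12 arrays by group, with the marker shape giving the scan and the black line the group mean (n = 3). Gstt3 separates the genotypes on both diets, Gsta2 has wild-type low-fat arrays from -1.96 to 0.50, and Gsta4 is lowest on the null low-fat arrays.

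In the alpha class, Gsta2 and Gsta4 were lower on the arrays labelled null, without passing the test over all genes. Gsta2, an alpha-class enzyme that detoxifies lipid peroxides, had the largest log2 difference of all members on the low-fat diet. Its log2 ratios were 0.50, -1.96 and -0.30 on the wild-type low-fat arrays, a mean of -0.59 ± 1.25 (SD, n = 3), and for the high-fat diet -1.60, -1.12 and -1.44, a mean of -1.39 ± 0.24. The arrays labelled null gave -2.63, -3.26 and -2.83 on the low-fat diet, a mean of -2.91 ± 0.32, and -2.02, -2.55 and -2.70 on the high-fat diet, a mean of -2.42 ± 0.35. Every array labelled null was lower than every wild-type array. The wild-type low-fat arrays alone spanned more than the distance between the other group means.

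For Gsta2 the log2 difference was -2.32 on the low-fat diet (SE 0.48, limma adjusted p = 0.191) and -1.03 on the high-fat diet (SE 0.48, limma adjusted p = 1.00). Over both diets it was -1.68 (SE 0.34, limma adjusted p = 0.0923). Leaving out the wild-type low-fat array 2, at -1.96, brought the gene past the threshold: -3.00 on the low-fat diet (limma adjusted p = 0.00566) and -2.02 over both diets (limma adjusted p = 0.00190). Without the wild-type low-fat array 1, which stood apart, the differences were -1.78 (limma adjusted p = 0.173) and -1.41 (limma adjusted p = 0.0551). With the scan as a block as well, they were -1.40 (limma adjusted p = 0.307) and -1.10 (limma adjusted p = 0.192). Leaving out any 1 array gave low-fat differences of -3.00 to -1.78, with limma adjusted p of 0.00566 to 0.676. Within scans the low-fat difference was -3.54 in the first and -0.67 in the second, and the high-fat difference was -0.76 and -1.42. Set beside Gsta2, the 9 measured genes of a female-biased liver list had median log2 ratios of 0.33, -2.03 and -0.60 on the wild-type low-fat arrays 1, 2 and 3. That list lay at -1.11 to -0.62 in the wild-type high-fat group and at -2.45 to -1.67 on the arrays labelled null. The part of that list's genes in the Gsta2 result was not tested. Gsta1, named for the 20 bases its probe shares, read -0.77 to -0.15 on wild-type and -1.63 to -0.67 on null low-fat arrays, and its log2 difference over both diets was -0.67 (SE 0.19, limma adjusted p = 0.255).

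Gsta4, the alpha-class enzyme specialised for the lipid aldehyde 4-hydroxynonenal, was read by 10 spots per array. In wild-type livers it read -0.11, -0.26 and -0.39 with the low-fat diet and -0.55, -0.05 and -0.41 with the high-fat diet. Null low-fat arrays gave -1.13, -1.27 and -1.01, a mean of -1.14 ± 0.13 (SD, n = 3), and null high-fat arrays gave -0.34, -0.70 and -0.72, a mean of -0.58 ± 0.22. The null low-fat arrays were below all others, and the null high-fat arrays overlapped the wild-type range. The log2 difference between genotypes was -0.88 on the low-fat diet (SE 0.17, limma adjusted p = 0.148) and -0.25 on the high-fat diet (SE 0.17, limma adjusted p = 1.00). Within scans the low-fat difference was -1.02 and -0.87, and the high-fat difference was 0.02 and -0.65. Between diets, the null livers differed by 0.55 (SE 0.17, unadjusted p = 0.00891, limma adjusted p = 1.00), and the genotype differences on the 2 diets differed by 0.63 (SE 0.25, unadjusted p = 0.0260, limma adjusted p = 1.00).

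Gsta3 had the smallest genotype difference of the alpha class over both diets and is read by 2 probes. The brighter probe, A_51_P503625, had log2 ratios of -0.95, 0.43 and 0.40 on wild-type low-fat and 0.88, 0.78 and 0.26 on wild-type high-fat arrays. It read 0.61, -0.19 and 0.08 on null low-fat and -0.16, 0.59 and -0.27 on null high-fat arrays. The groups overlapped, and the log2 difference over both diets was -0.19 (SE 0.27, 95% interval -0.79 to 0.40). The probe A_52_P432124 read 0.37, 0.47 and 0.22 on wild-type low-fat and 1.64, 0.94 and 0.48 on wild-type high-fat arrays. All 3 wild-type high-fat values of this probe were above the low-fat ones, and the difference as measured was 0.67 (SE 0.24, limma adjusted p = 1.00). On null low-fat arrays A_52_P432124 read 0.47, 0.81 and 0.74, and on null high-fat arrays 0.79, 0.58 and 0.71. Its genotype difference over both diets was -0.003 (SE 0.17, 95% interval -0.38 to 0.38). Both probes were partly saturated: A_52_P432124 on 2 of 12 arrays, 1 of them wild-type high-fat array 2 in the sample channel, and A_51_P503625 on 5 arrays in either colour. The sizes of the Gsta3 differences are uncertain by this.

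The 4 mu-class genes, which lie in a row on chromosome 3 and conjugate epoxides and quinones, did not separate the groups. Gstm1, the main mu enzyme of mouse liver, had log2 ratios of -0.42, 0.32 and 0.71 on wild-type low-fat and -0.35, 0.72 and -0.25 on wild-type high-fat arrays with its brighter probe, A_51_P479311. Null low-fat arrays gave 0.24, -0.21 and -1.16, and null high-fat arrays gave -1.01, 0.59 and -0.82. Within each group the array of the second scan was above the arrays of the first, and those 4 arrays were the ones on which the reference channel of this probe was saturated. The probe A_52_P415215 of the same gene ran the other way: it read 1.37, 0.46 and 0.58 on wild-type low-fat arrays and -1.50, 1.48 and -0.13 on null low-fat arrays. It read 1.10, -0.30 and 0.14 on wild-type high-fat and 1.02, -0.79 and 1.03 on null high-fat arrays. The genotype difference on this probe was -0.85 (SE 0.71) on the low-fat and 0.11 (SE 0.71) on the high-fat diet, and no array was saturated. Over both diets the genotype difference was -0.52 (SE 0.35, 95% interval -1.29 to 0.25) on the first and -0.37 (SE 0.50, 95% interval -1.48 to 0.73) on the second probe.

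Gstm2 had the narrowest spread of the mu class, from -0.24 to 0.72 over the 12 arrays, and its log2 difference over both diets was -0.09 (SE 0.17, 95% interval -0.46 to 0.28). Gstm3 read -0.21 to 0.14 on the wild-type low-fat arrays, -1.06 to 0.13 on wild-type high-fat, -0.88 to 0.24 on null low-fat and -0.99 to -0.14 on null high-fat arrays. Its wild-type low-fat values were the closest together, and the other 3 groups overlapped widely. The Gstm3 probe was saturated in the reference on 3 arrays of the second scan. The log2 difference of Gstm3 over both diets was -0.30 (SE 0.25, 95% interval -0.85 to 0.24). Gstm4 read 0.61 to 0.84 on wild-type low-fat, 0.04 to 1.35 on wild-type high-fat, -0.58 to 1.25 on null low-fat and -0.23 to 0.83 on null high-fat arrays, and its difference was -0.34 (SE 0.32, 95% interval -1.04 to 0.36). No mu-class gene had an unadjusted p under 0.05 in any comparison.

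Gstp1, the pi-class enzyme, which in mouse liver is known to be more abundant in males, was the only member with a positive genotype difference on both diets. Its 2 probes gave different sizes. The brighter probe, A_51_P374457, had log2 ratios of -0.83, 0.79 and 0.01 on wild-type low-fat and -0.65, 0.78 and -0.13 on wild-type high-fat arrays. The same probe read 1.40, -0.17 and -0.14 on null low-fat and 0.16, 1.22 and 0.41 on null high-fat arrays. Genotypes overlapped, and the log2 difference over both diets was 0.49 (SE 0.38, 95% interval -0.34 to 1.32, limma adjusted p = 0.825). This probe was saturated in the sample channel on 10 of 12 arrays, all 6 labelled null and 2 of 3 in each wild-type group. Its values therefore compare the scanner's ceiling with itself, and no fold or bound between genotypes can be read from them.

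The probe A_51_P374464 of Gstp1 was saturated in the sample channel on 5 arrays, all labelled null, and in the reference on the 4 arrays of the second scan, so that 1 array labelled null was saturated in both and 4 arrays in neither. It read 0.62, 0.59 and -0.54 on wild-type low-fat and -0.12, 0.29 and -0.30 on wild-type high-fat arrays. The arrays labelled null gave 1.08, 1.89 and 0.70 on the low-fat diet and 1.86, 1.22 and 1.64 on the high-fat diet. All 6 arrays labelled null were above all 6 wild-type arrays. In the sample channel, where no wild-type array was saturated, its normalized mean was 1.82-fold higher on the null high-fat arrays, all 3 of them saturated. The low-fat mean was 1.33-fold higher, with 2 of 3 null arrays saturated. Neither fold is a strict minimum, because the normalization also uses the reference channel, which was saturated in the second scan. Before normalization the unsaturated null low-fat array had a sample signal of 52158, beside 59234, 56458 and 36819 on the wild-type low-fat arrays. A fit over all measured probes, which takes the saturated values as they stand, gave log2 differences of 1.00 on the low-fat diet (SE 0.36, limma adjusted p = 0.592) and 1.62 on the high-fat diet (SE 0.36, limma adjusted p = 0.495). Over both diets it gave 1.31 (SE 0.26, limma adjusted p = 0.0950), which did not pass. Within scans the low-fat difference was 0.68 and 0.49 and the high-fat difference 1.87 and 0.93. Gstp2 lies beside Gstp1 on chromosome 19, is nearly identical to it and has no probe of that name, so the Gstp1 values may hold RNA of both genes.

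**Figure D2:**
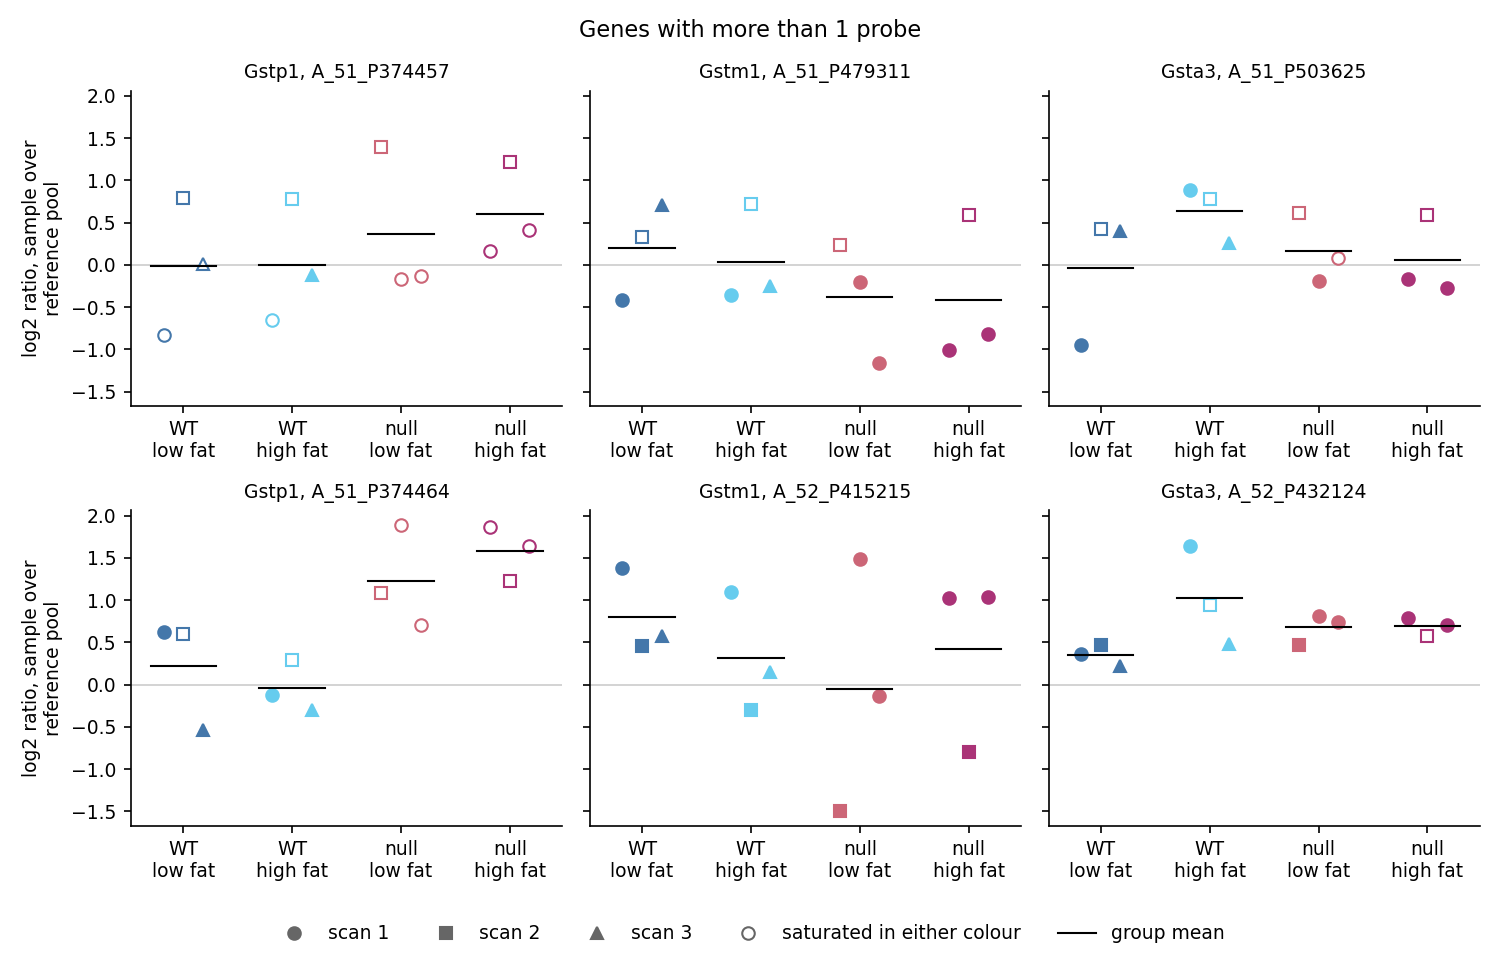
Log2 ratio of sample to reference pool (vertical axis) on each array by group for the genes read by 2 probes, Gstp1, Gstm1 and Gsta3, with the gene's brighter probe in the upper row. Open markers are arrays saturated in either colour, marker shapes give the scan and black lines the group means (n = 3); all 6 arrays labelled null lie above all wild-type arrays only for the lower Gstp1 probe.

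Taken by class over both diets, the 3 alpha genes had negative log2 differences of -1.68 to -0.19, the 4 mu genes of -0.52 to -0.09 and the 2 theta genes of -1.50 and -0.29, and the pi gene had 0.49. The pi value is that of the brighter Gstp1 probe, whose saturation lets no size be read, and the second probe gave 1.31. The second Gsta3 probe, saturated on fewer arrays, gave -0.003 (SE 0.17). By the brightest probe of each gene, the sign was negative for 9 of 10 members, where it was negative for 51.2% of all genes tested. The members' median was -0.32, beside -0.01 over all genes. On the low-fat diet the sign was negative for 7 of 10 members (50.9% of all genes), with a median of -0.41, and on the high-fat diet for 9 of 10 (49.4%), with a median of -0.34. These counts of signs take the brightest probe of each gene and cover values that mostly did not pass a test. On the high-fat diet the unsaturated second Gstm1 probe gave 0.11 (SE 0.71), where the brighter one was negative. The second probes of Gsta3 and Gstp1 kept the sign of the brighter ones on that diet.

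With limma, 0 of 10 members passed an adjusted p of 0.05 on the low-fat diet, where 0.0201% of all genes did, and 3 of 10 had an unadjusted p under 0.05 (Gsta2, Gsta4 and Gstt3), where 7.2% did. On the high-fat diet 0 of 10 passed (0.0134% of all genes), and only Gstt3 had an unadjusted p under 0.05 (2.58%). Over both diets 1 of 10 passed (0.288% of all genes), and the same 3 members as on the low-fat diet had an unadjusted p under 0.05 (8.4%). These counts take the brightest probe of each gene. The second Gstp1 probe, left out of them, had unadjusted limma p of 0.0188 (low fat), 0.000974 (high fat) and 0.000345 (both diets). Those values come from the fit over all measured probes, with saturated values taken as they stand. Arrays labelled null lay wholly below the wild-type arrays for Gsta2, Gsta4 and Gstt3 on the low-fat diet, where 4.51% of genes did. On the high-fat diet they did so for Gsta2 and Gstt3 (4.08% of genes). Gsta2 and Gstt3 thus had the arrays labelled null wholly below the wild-type arrays within each diet, which held for 0.778% of genes.

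No member passed in the diet comparisons. In wild-type livers limma called 0 of 10 members between the diets, taking the brightest probe of each (0.00671% of all genes). Among these probes that of Gstt3 alone had an unadjusted p under 0.05 (4.02% of genes), with a log2 difference of 0.62 (SE 0.27, limma adjusted p = 1.00). The second Gsta3 probe, partly saturated, had an unadjusted p of 0.0193 in the limma fit over all measured probes. In the livers labelled null limma called 0 of 10 (0.00671% of genes), and Gsta4 alone had an unadjusted p under 0.05 (1.91%). The null high-fat arrays lay wholly above the null low-fat arrays for Gsta4, as for 2.3% of genes. The test of whether genotype differences depended on diet called 0 of 10 members (0% of all genes), with Gsta4 alone at an unadjusted p under 0.05 (0.899%). The genotype and diet comparisons share arrays, so their values are not independent of each other.

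**Figure D3:**
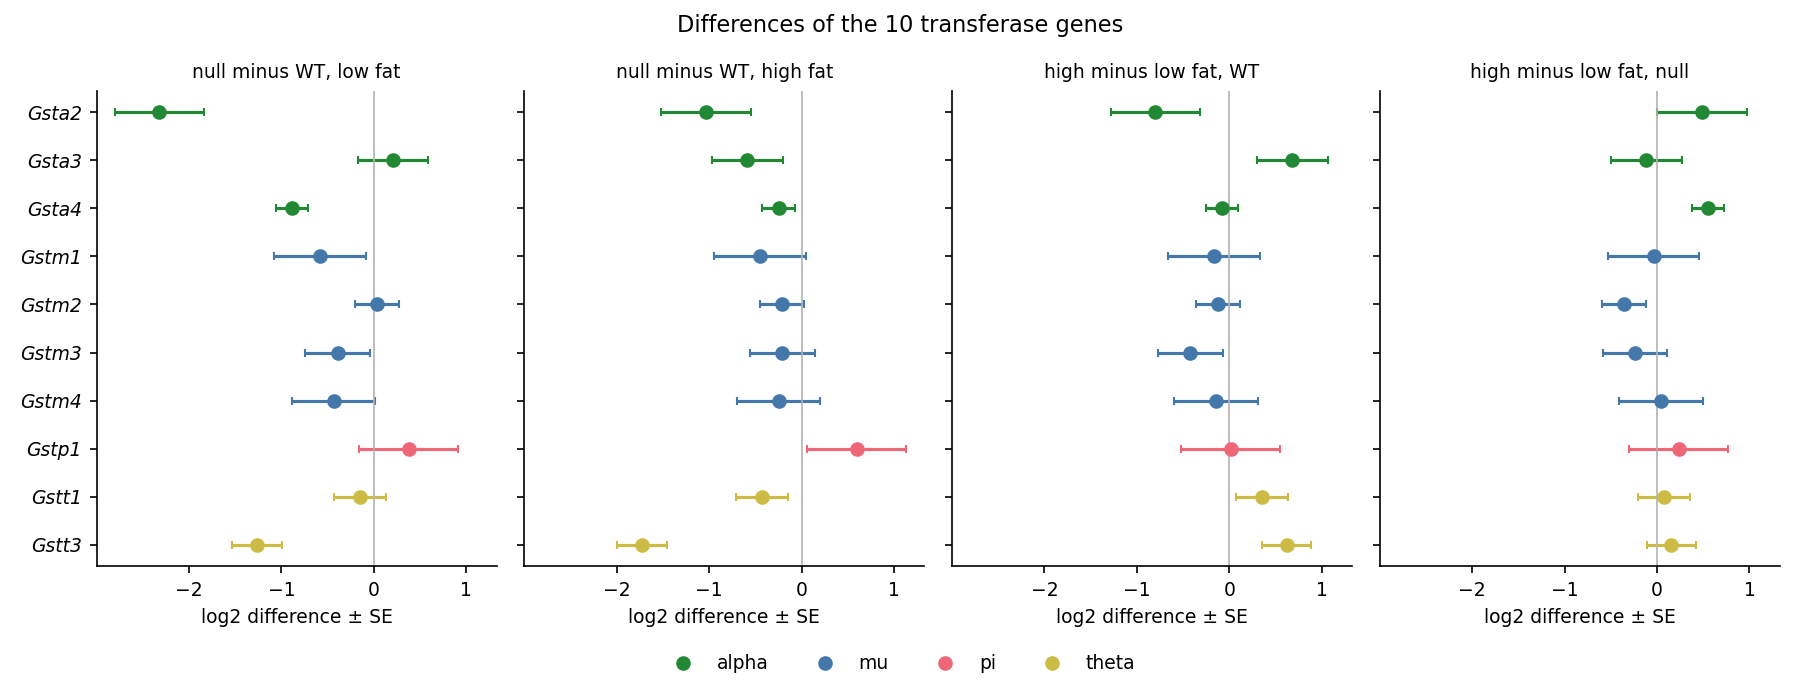
Log2 difference (horizontal axis, ± SE from limma) of each of the 10 members in 4 comparisons of 3 against 3 arrays, coloured by class. Each member is shown by its brightest probe, which for Gstp1 was saturated on most arrays. Gstt3 lies at -1.26 and -1.73 in the genotype comparisons, and in the diet comparisons the members lie between -0.80 and 0.68.

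Several member probes moved with the scan. Averaged over the 4 groups, an array of the second scan exceeded those of the first by 1.38 in log2 ratio for the brighter Gstp1 probe and by 1.06 for the brighter Gstm1 probe, in 4 of 4 groups each. The second Gstm1 probe was lower by 1.57 in all 4 groups (difference -1.57). Over all genes the absolute difference had a median of 0.26 and a 95th percentile of 0.95, so these 3 probes lay beyond that percentile. Gstt3 (-0.12), Gsta4 (0.05), Gsta2 (-0.44) and the second Gstp1 probe (-0.09) lay within it. Arrays of the first scan had 63 to 107 saturated spots in the sample channel, and those of the second had 129 to 220 in the reference. The part of scanning in the Gstm1 and Gstp1 values was not tested.

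**Figure D4:**
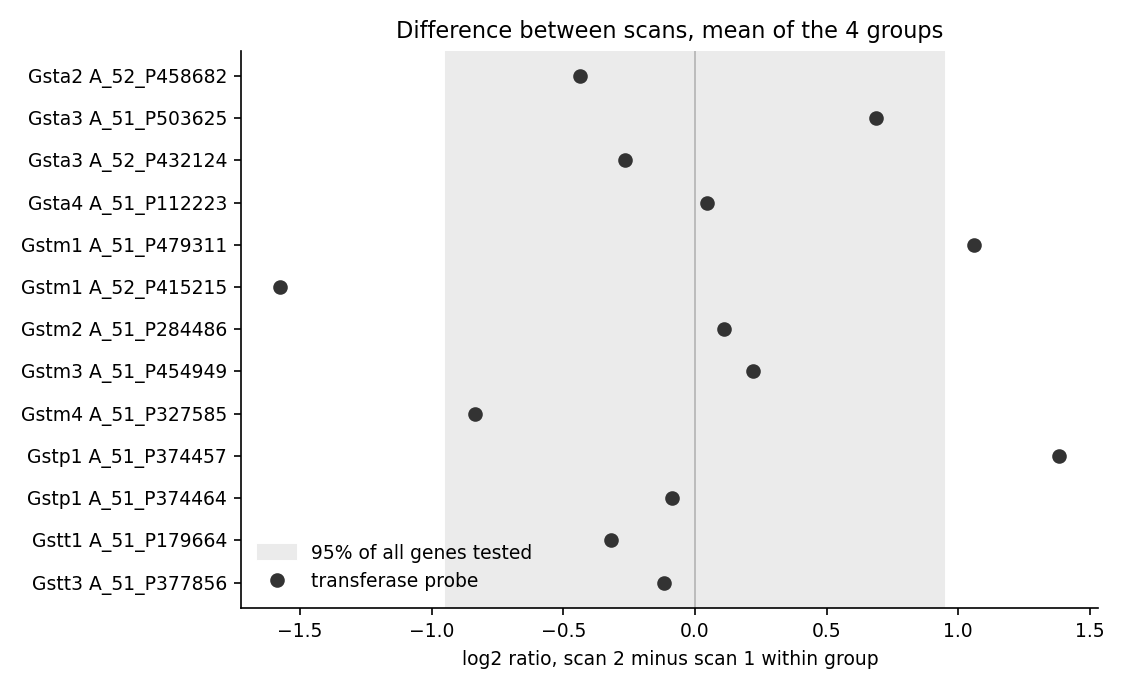
Log2 ratio of the second minus the first scan within groups (horizontal axis), averaged over the 4 groups, for each of the 13 member probes. The grey band holds 95% of all genes tested (up to 0.95 either way), and the brighter probes of Gstp1 and Gstm1 (1.38 and 1.06) and the second Gstm1 probe (-1.57) lie outside it.

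Over the 12 arrays, which share the reference pool and the scans, the members' log2 ratios did not run together as a family. Gsta2 and Gsta4 had a Pearson correlation of 0.79, Gsta2 and Gstt3 of 0.69, Gsta4 and Gstt3 of 0.66 and Gstt1 and Gstt3 of 0.62. Gstm4 and Gstt1 had 0.70, while Gstm4 and Gstp1 had -0.71. For 1 member of each class, the 3 genes most like it were taken by the same measure over the same 12 arrays. This search left out all glutathione transferases, names of clones and predicted genes, and genes with a missing value, so closer ones may exist among these. Gstt3 was most like Slc16a7 (0.94), Serpinb1a (0.93) and Pmm1 (0.93). Gsta2 was most like Sp110 (0.94), Ly6d (0.93) and Cyp3a41a (0.92). The nearest genes were Adk (0.90), Ftl2-ps (0.90) and Fbp1 (0.88) for Gstm1 and Serpina3m (0.96), Purg (0.93) and Cd248 (0.92) for Gstp1, and the probes used for both members moved with the scan. All Gstp1 correlations here use its brighter probe, saturated in the sample channel on 10 of 12 arrays.

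The rest of the pathway was described from lists, as counts of the null minus wild-type difference over both diets. Of all genes tested, 51.2% had negative values, 0.288% passed with limma and 8.4% had an unadjusted p under 0.05. Of 15 other transferase genes 11 were measured, 9 with negative and 2 with positive values and a median of -0.29. Gstt2 alone passed, and 5 had an unadjusted p under 0.05 in limma. Mgst3, a microsomal enzyme named here after its values were seen, of lipid peroxide metabolism, read -0.67 to 0.43 on wild-type and -2.07 to -0.56 on the arrays labelled null, with a difference of -1.14 (SE 0.24, limma adjusted p = 0.0961). Of 18 measured genes that make and recycle glutathione, 13 had negative values, the median was -0.14 and 0 passed with limma, with 4 at an unadjusted p under 0.05. The smallest p there belonged to Nnt (0.52, SE 0.12), which supplies mitochondrial NADPH, and Gpx4 (-0.55, SE 0.15), which reduces lipid peroxides. Of 11 genes in a list for conjugate export and mercapturate formation, 6 had negative values and the median was -0.03. With limma 0 passed, with 2 at an unadjusted p under 0.05. The exporter Abcc3 had the smallest p there, with a difference of -1.86 (SE 0.39, limma adjusted p = 0.106). Next came Aspa, placed there by the list alone, at -0.43 (SE 0.16).

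Regulators of transferase genes showed no passed member among 13, with a median of -0.14 and 3 at an unadjusted p under 0.05 in limma. The smallest p belonged to Maff (-1.09, SE 0.45), a small partner of NRF2, and Rxra (0.32, SE 0.14), a partner of nuclear receptors. NRF2-induced enzymes other than transferases had negative values for 11 of 12, a median of -0.34 and 0 passed in limma, with 5 at an unadjusted p under 0.05. The smallest p belonged to Osgin1 (0.77, SE 0.20) and the carbonyl reductase Cbr1 (-0.52, SE 0.15). CAR-induced enzymes had negative values for 9 of 13 with a median of -0.33, and 4 had an unadjusted p under 0.05 in limma. Among them Cyp2a5, a P450 that oxidises coumarin, passed at -1.94 (SE 0.19, limma adjusted p = 0.00229). Liver genes with a sex bias showed larger values: the male-biased list was positive for 15 of 15 with a median of 1.14, and Moxd1 (3.40), C8b (1.42), Selenbp2 (1.44) and Nudt7 (1.28) passed. The female-biased list was negative for 8 of 9 with a median of -1.58, and Cyp2a4 (-1.96) passed. In limma 9 genes of the male-biased and 8 of the female-biased list had an unadjusted p under 0.05. Among markers of other cells, stellate cell genes had medians of -0.46 to 0.50 on the wild-type low-fat arrays and of -1.11 to -0.89 on the null low-fat arrays, and 8 of 11 were negative over both diets with 0 passed in limma (3 at an unadjusted p under 0.05). The part of such cells in the member values was not tested.

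Of the 10 members, 9 have a promoter in the RefSeq table of GRCm38.p6, in 12 windows of 250 bases before a start site. On either strand, the antioxidant response element core TGACNNNGC was found in Gsta3 alone, with its first base at -121 from the start, and in 10.2% of 32851 windows of all genes. The xenobiotic response element core GCGTG was found in Gsta2, Gstm1 and Gstp1, and in 28.2% of all windows. A match is a description of letters and not a binding site. The windows of the 2 members with the largest genotype differences are printed 5′ to 3′ on the gene's strand, the minus strand for both. Gstt3, the member that passed, has neither core in chr10:75781423-75781672, which says only that these letters are not there. Gsta2 has the xenobiotic core, in capitals, from base -7 of chr9:78347146-78347395.
Gstt3: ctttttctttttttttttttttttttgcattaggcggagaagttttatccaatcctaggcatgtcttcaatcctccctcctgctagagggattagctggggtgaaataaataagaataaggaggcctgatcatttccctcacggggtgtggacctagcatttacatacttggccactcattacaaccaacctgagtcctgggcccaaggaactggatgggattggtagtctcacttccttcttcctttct
Gsta2: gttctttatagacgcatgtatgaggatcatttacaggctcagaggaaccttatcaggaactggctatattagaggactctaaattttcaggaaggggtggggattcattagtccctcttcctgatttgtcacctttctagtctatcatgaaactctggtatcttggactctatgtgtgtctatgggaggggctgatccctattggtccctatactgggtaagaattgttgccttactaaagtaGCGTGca

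The authors' deposited table of log2 ratios between groups holds the members under 3 comparisons. For Gstt3 it lists -1.19 for null against wild-type on the low-fat diet and -1.91 on the high-fat diet. In the authors' deposited table Gsta2 has -2.48 and -1.51, Gsta4 has -1.13 and -0.48, and the second Gstp1 probe has 1.09 and 1.65. For high against low fat in wild-type livers the authors' deposited table gives 0.60 for Gstt3 and 0.63 and 0.83 for the probes of Gsta3.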

How the data were processed

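Spot intensities of both colours and their local background are as deposited and come from Agilent's Feature Extraction, per the file headers (version 9.1.3.1 of its spot analysis). The deposited log10 ratios of processed signals, and the marks for saturation and for signal well above background, come from it too. The submitters' processing notes name limma, and the authors' deposited table holds log2 ratios. They equal the group-mean differences of the log10 ratios, turned to Cy3 over Cy5, on 43379 spots within 1e-06.

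Values here were recomputed with limma 3.58.1 in R 4.3.3: normexp with an offset of 50, loess within arrays, repeated spots averaged, and 120 non-uniform spots left out. A probe counted as measured if all 3 arrays of at least 1 group had a sample channel well above background, and the brightest such probe stood for its gene. Symbols came from RefSeq accessions for 24844 probes and otherwise from the files. The model gave each group a mean over the 12 arrays, with 8 residual and 3.16 prior degrees of freedom. P-values were adjusted by the Benjamini-Hochberg method over 14911 genes or, for single probes, 21490 measured probes. The scripts were tested on simulated data. The sample-channel folds of the second Gstp1 probe compare means after loess and Aquantile. Labelling used 1 of 2 kits depending on the RNA amount, per the labels' protocols, which do not give the kit of each sample. Genes named beside the members are those past the threshold, or else the 2 with the smallest unadjusted p, of a list. Also named are the 3 genes most correlated with the member of smallest p in each class, transferases and clone or predicted names left out. Members and lists were chosen with earlier results of these data known. Alternatives are given in the closing section.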

Additional observations from a re-analysis of the deposited data

How the results depend on the processing

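Gstt3, averaged over both diets, passed in 13 of 14 alternatives (-1.60 to -1.10, limma adjusted p 0.000374 to 0.999) and without each of the 12 arrays (-1.59 to -1.39, adjusted p 0.00824 to 0.0248). Over both diets 1 member passed, among 43 of all genes. This count was 3 (Gsta2, Gsta4 and Gstt3) with Agilent's processed signals, without background subtraction and with the sample channel alone, where 237, 113 and 264 of all genes passed, and 0 with median centring, where 1 gene passed. It was 2 (Gstt1 and Gstt3) of 138 genes with the scan as a block without the wild-type low-fat array 1, a setting chosen after seeing the data. On the high-fat diet 0 members passed, among 2 of all genes, against 1 (Gstt3) with processed signals (-1.91), without background subtraction (-1.78), with the sample channel alone (-1.96) and with the slide as a random block (-1.74), where 50, 10, 37 and 14 genes passed. On the low-fat diet 0 passed, among 3 of all genes, against 1 (Gstt3) of 32 with the sample channel alone. The settings that added members thus also called more of all genes. Leaving out 1 array at a time gave 0 to 1 members on the low-fat diet and 1 to 2 over both diets, the higher counts without the wild-type low-fat array 2, when Gsta2 passed and all genes gave 26 and 70 calls. The cause of these changes was not tested.

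The replicate numbers did not pair the arrays throughout: deviations of same-numbered arrays correlated above 0.1 in 6 of 18 pairs (-0.58 to 0.57), all 6 within a scan. In the wild-type groups the array numbers are also the scan numbers, and same-numbered low-fat and high-fat arrays correlated at 0.33 to 0.46. Over pairs of arrays from different groups, the median correlation was 0.38 within a scan and -0.18 between scans. The main model holds no term for the scan. With the replicate block, 1 member passed over both diets (Gstt3, limma adjusted p = 0.0100) and 0 on either diet. Values with an unadjusted p under 0.05 kept their sign in all 146 values of the alternatives listed at the start, while the others changed it in 37 of 734. Saturation limits both Gstp1 probes, both Gsta3 probes, the brighter Gstm1 probe and Gstm3.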
